A study of Mus musculus with 4 samples.

Results

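The collagen genes of the mouse are described here for H3K36me2, the dimethyl mark on lysine 36 of histone H3, as mapped by chromatin immunoprecipitation and sequencing in cultured mesenchymal stem cells (MSCs) of mouse bone marrow. Members were the protein-coding genes on chromosomes 1 to 19 with a symbol of the form Col, number, a, number in the GRCm38 RefSeq gene table. The rule gave 42 of the 20665 protein-coding genes on those chromosomes, and it left out 2 X-linked collagen genes. The 2 groups were cells given 1 µM melatonin for 24 hours and untreated cells, with 1 antibody library and 1 input library each. Strain, age and number of animals were not in the labels used here, the series' design text speaks of old donors, and its title speaks of senescent MSCs. With 1 library per condition, every difference given is between these libraries, with no replicate check and no test. Depth was 14180076.5 tags with melatonin and 13198427.5 without, as the file headers give it, of which 1.12% and 1.24% lay in the 7699 and 8361 called peaks. A gene was called marked when a peak reached, by at least 1 bp, into its body or its flanks of 10 kb. Such a peak list from bulk cells cannot separate the share of cells that carry the mark from its amount per cell.

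Collagens are the trimeric proteins of the extracellular matrix, built from chains that carry repeats of glycine and any pair of other residues. Fibrillar types give bone, tendon and cartilage their tensile strength, network types build basement membranes, and fibril-associated types coat fibrils. Bone marrow MSCs and the osteoblasts that arise from them lay down type I collagen as the main protein of bone. H3K36me2 is written by enzymes such as NSD2 and is known to spread over intergenic regions and gene bodies, and the demethylase KDM2A removes it at CpG-rich starts.

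Of the 42 collagen genes, 9 had a peak in at least 1 library and 33 had none. Among the 24 members of 100 kb or more 7 had one, against 47.2% of all genes of that length. Among the 18 shorter members 2 had one, against 9.97% of all shorter genes. With melatonin 7 genes had a peak (16.7%, exact 95% interval 6.97 to 31.4), against 9.24% of all protein-coding genes. Without melatonin 6 genes had a peak (14.3%, interval 5.43 to 28.5), against 8.69% of all. In both lists 4 genes were marked, namely Col4a3, Col14a1, Col24a1 and Col28a1, where 3.79% of all protein-coding genes had a peak in both. Col6a1, Col7a1 and Col18a1 had a peak with melatonin alone (5.44% of all genes did), and Col15a1 and Col25a1 without melatonin alone (4.9% of all genes did). The main bone collagen genes Col1a1 and Col1a2 were among the 33 genes with no peak, which was usual for genes of their length. Of the other genes of like length on the chromosome of Col1a1, 6.07% had a melatonin peak and 4.75% an untreated one. For Col1a2 these shares were 12.4% and 10.2%. The lack of a called peak does not show that a gene lacks the mark. In gene bodies alone, 5 members had a melatonin peak and 6 an untreated peak, with the same 4 in both, against 5.76%, 5.48% and 2.8% of all genes. With flanks of 50 kb the counts were 11, 11 and 7, against 20.9%, 18.9% and 9.95%. All counts rest on few peaks, 13 at these genes with melatonin (exact Poisson interval 6.92 to 22.2) and 14 without (7.65 to 23.5).

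Col24a1 encodes a fibrillar chain of developing bone and, with Col28a1, had more peaks over the 2 lists than any other member, 7 each. It spans chromosome 3 from 145292472 to 145552013, and it had 3 melatonin peaks (Poisson interval 0.619 to 8.77) and 4 untreated peaks (1.09 to 10.2). The melatonin peaks had their midpoints 62.8, 111 and 199 kb after the start, with folds over input of 4.67, 4.35 and 6.43. The untreated midpoints lay at 85.4, 169, 207 and 251 kb, with folds of 4.73, 4.49, 4.49 and 4.1. From the start, peaks of the 2 libraries took turns up to 207 kb, the last peak was again an untreated one, and none overlapped across the libraries. The closest pair, 145491233 to 145492233 with melatonin and 145498975 to 145499975 without, stood 6.74 kb apart.

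Col4a3 encodes a chain of the basement membrane of the kidney filter (chromosome 1, 82586921 to 82722059). It had 1 melatonin peak at 82698170 to 82699170 (13.4 tags per 10000000, fold 6.61), where the long noncoding RNA gene C430014B12Rik also lies. Its untreated peaks, at 82609928 to 82610928 (fold 4.49) and 82667202 to 82668202 (fold 4.84), held 13.3 and 12.9 tags per 10000000. The nearest of these to the melatonin peak was 30 kb away. Col4a4, its partner chain, overlaps the start of Col4a3 by 0.113 kb and had no peak. Its nearest peaks were those inside Col4a3, at 111 kb with melatonin and 22.9 kb without.

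Col14a1 encodes a fibril-associated chain that binds the surface of type I collagen fibrils (chromosome 15, 55307644 to 55520803). A melatonin peak lay at 55388063 to 55389063 (14.8 tags per 10000000, fold 5.22). The untreated peaks lay at 55360983 to 55361983 (fold 5.27), 55408291 to 55409291 (fold 4.49) and 55502059 to 55503059 (fold 4.87). The melatonin peak fell between the first and the second of these, 26.1 and 19.2 kb from them. Around Col14a1 the region was dense in peaks, with 19 melatonin and 23 untreated peaks within 1 Mb of the gene. Over all 42 collagen genes the medians within 1 Mb were 4 and 3 peaks, and over all protein-coding genes 3 and 3.

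Col28a1 encodes a chain with von Willebrand A domains that is known from nerve-associated matrix (chromosome 6, minus strand, 7997100 to 8193709). It was the only member with a site called in both libraries. That site lay outside the gene, past its end, inside the long noncoding RNA gene Gm35446, which overlaps the end of Col28a1. The melatonin call ran from 7990719 to 7991719 and the untreated call from 7990787 to 7991787. The 2 peaks shared 933 bp, and their folds were 16.96 and 6.23. The melatonin fold was above that of 98% of its list but rested on 1 input tag. Its tag count of 13.8 per 10000000 was above that of only 53.8% of the list. The other melatonin peaks stood nearby, at 7987317 to 7988317 (fold 13.48), 7997772 to 7998772 (fold 4.35) and 8005548 to 8006548 (fold 4.13), so that all 4 lay around the 3' end of the gene and 3 of them in Gm35446. The untreated library instead had a peak 33.2 kb into the gene from that end (fold 5.68) and one near the start, at 8182041 to 8183298 (fold 4.27).

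**Figure D1:**
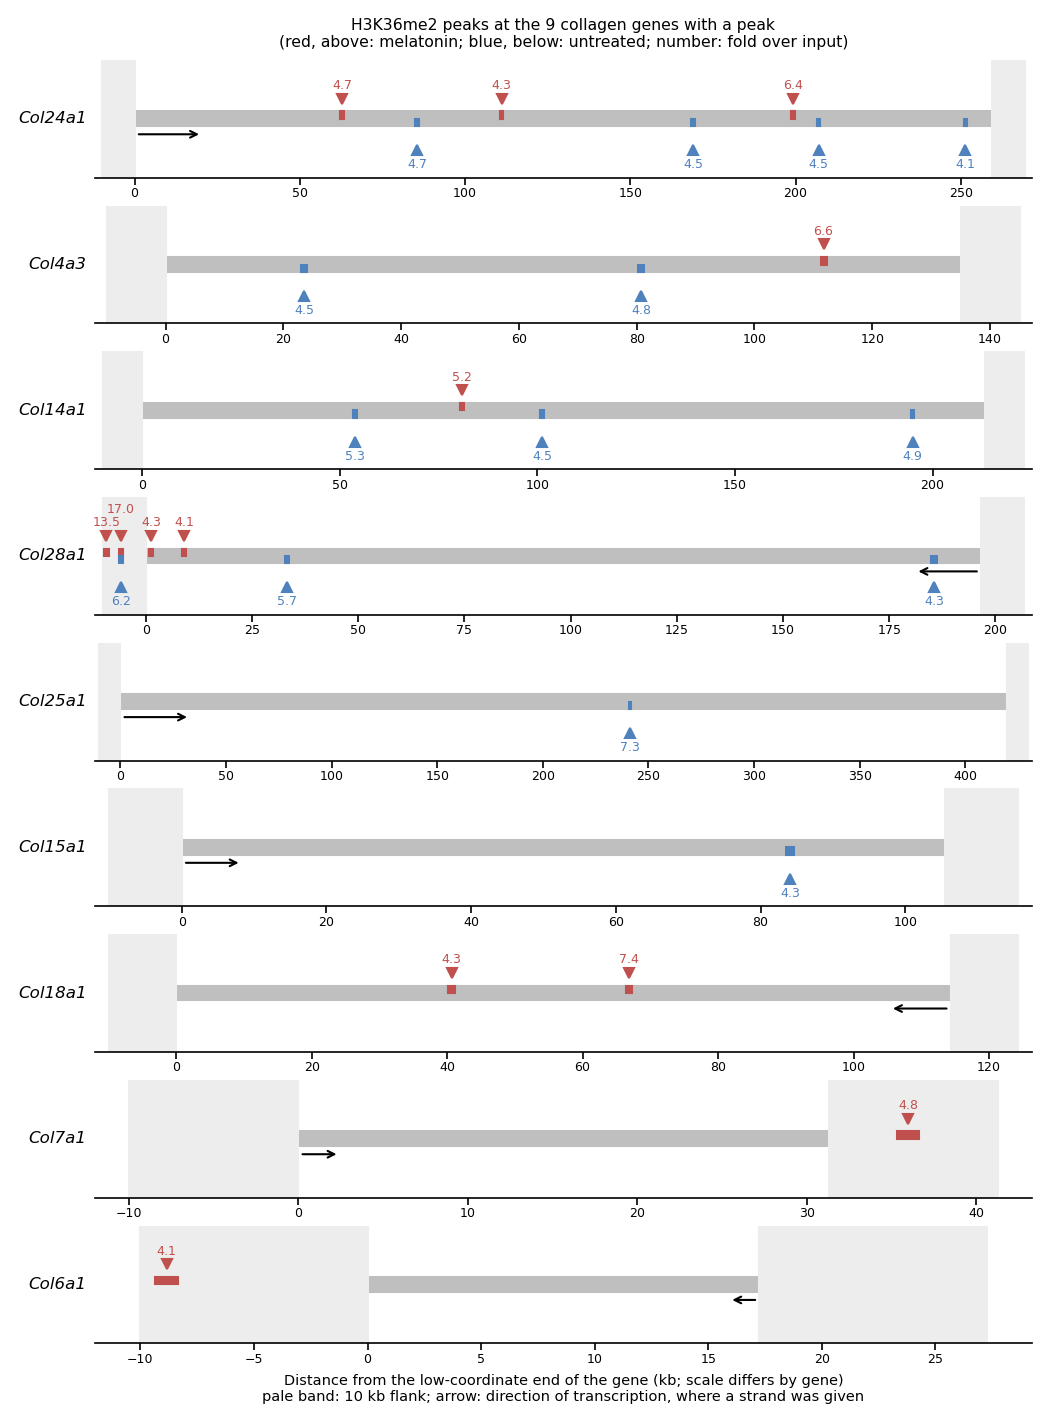
Each panel is 1 of the 9 collagen genes with a peak, drawn as a grey bar on a kb scale from its low-coordinate end, with the 10 kb flanks shaded. Melatonin peaks (red, above) and untreated peaks (blue, below) carry their fold over input; only the Col28a1 site 5.38 kb past the low-coordinate end was called in both.

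Another 5 members had a peak in 1 list alone. Col18a1, whose protein is the source of endostatin (chromosome 10, minus strand, 77052178 to 77166530), had melatonin peaks at 77092326 to 77093326 (14.1 tags per 10000000, fold 4.35) and 77118534 to 77119534 (12 tags, fold 7.39). In the untreated list its nearest peak was 133 kb away. Col6a1, a chain of the beaded microfibrils around cells, and Col7a1, the chain of the anchoring fibrils of skin, were counted only through their flanks. The Col6a1 peak (chromosome 10, 76699452 to 76700452, fold 4.13) lay 8.34 kb from the gene. The Col7a1 peak (chromosome 9, 108988896 to 108990221, fold 4.78) lay 4.02 kb from the gene, inside Pfkfb4, a gene of glucose metabolism. Without melatonin the nearest peaks were 45.9 kb from Col6a1 and 671 kb from Col7a1.

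Col15a1, the other multiplexin beside Col18a1 and a basement membrane component (chromosome 4, 47207655 to 47313167), had 1 untreated peak at 47291205 to 47292205 (14 tags per 10000000, fold 4.31). With melatonin it fell just outside the rule, its nearest peak standing 11.8 kb away at 47325017 to 47326017 (fold 5.34). That melatonin peak overlapped an untreated peak at 47324349 to 47325602 (fold 5.98) by 586 bp, so a site beyond the window of Col15a1 was called in both libraries. Col25a1, a transmembrane collagen of neurons and the longest member at 419.5 kb (chromosome 3, 130180358 to 130599884), had 1 untreated peak at 130421289 to 130422289 (12.9 tags per 10000000, fold 7.26). Its nearest melatonin peak was 83.7 kb from the gene. With 1 or 2 peaks per gene, these calls in 1 list differ by as little as 1 peak, and treatment and library cannot be told apart.

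RefSeq start positions were at hand for 33 of the 42 genes (36 starts), with Col4a3 and Col14a1 not among them. In a peak of either list fell 0 of the 36. Of the 20085 starts of all protein-coding genes, 10 (0.0498%) lay in a melatonin peak and 11 (0.0548%) in an untreated peak. With shares this low, 0 of 36 says little about collagen genes. Within 10 kb of a peak were 1 collagen start with melatonin (2.78%, against 3.67% of all starts) and 1 without (2.78%, against 3.61%). These were the inner start of Col18a1, 4.83 kb from a melatonin peak, and the start of Col28a1, 9.32 kb from an untreated peak. The 250 bases before them are shown with those before Col4a1, the CpG-richest start of the set. CpG dinucleotides are in capitals because KDM2A is known to bind them when they are unmethylated. Reference sequence does not tell their methylation or KDM2A binding in these cells. All stretches are RefSeq sequence of GRCm38.p6, read 5′ to 3′ on the minus strand.
Col18a1, chr10:77113706-77113955: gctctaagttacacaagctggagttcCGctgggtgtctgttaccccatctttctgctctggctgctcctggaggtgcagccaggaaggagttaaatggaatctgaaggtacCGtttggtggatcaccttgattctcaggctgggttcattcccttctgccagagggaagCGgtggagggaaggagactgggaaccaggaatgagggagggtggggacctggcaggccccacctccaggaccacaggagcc
Col28a1, chr6:8192618-8192867: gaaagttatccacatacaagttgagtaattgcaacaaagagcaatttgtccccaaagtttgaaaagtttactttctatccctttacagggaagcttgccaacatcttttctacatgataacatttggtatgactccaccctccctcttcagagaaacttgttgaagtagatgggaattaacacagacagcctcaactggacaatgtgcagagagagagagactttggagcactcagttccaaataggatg
Col4a1, chr8:11312827-11313076: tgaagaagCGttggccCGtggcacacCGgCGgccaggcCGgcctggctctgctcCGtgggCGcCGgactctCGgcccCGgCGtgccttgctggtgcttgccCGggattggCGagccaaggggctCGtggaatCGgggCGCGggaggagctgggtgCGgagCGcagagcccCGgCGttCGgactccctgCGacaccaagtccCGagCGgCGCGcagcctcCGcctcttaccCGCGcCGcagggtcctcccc
The Col18a1 stretch holds 3 CpGs and the Col28a1 stretch 0, while the Col4a1 stretch, which lies just inside the body of the divergently transcribed Col4a2, holds 31. Over the 36 collagen starts the median was 9.5 CpGs, against 10 over all starts. Col4a1 was 269 kb from the nearest melatonin peak and 236 kb from the nearest untreated peak, counted from its start. The Col3a1 start also held 0 CpGs and lay 359 kb from a melatonin and 55.1 kb from an untreated peak. The outer Col9a1 start, with 0 CpGs, lay 933 and 957 kb away. The Col5a1 start held 28 CpGs and lay 33.9 and 1563 kb away. These starts are single cases, and a link between CpG number and distance to a peak was not tested.

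The fibrillar class, which forms the load-bearing fibrils, had 1 of its 11 genes with a peak in each library, and it was Col24a1 in both. Of all protein-coding genes 9.24% had a melatonin peak and 8.69% an untreated peak. For this class and those below, these shares are not matched on length. The median length was 45.1 kb in this class and 17.5 kb over all protein-coding genes. Col1a2, the second chain of type I collagen (chromosome 6, 4505618 to 4541543), had its nearest peaks at 42.8 kb with melatonin (4461858 to 4462858, fold 4.24) and 53.8 kb without (4450807 to 4451807, fold 5.13). The 2 peaks stood 10.1 kb apart in the same long noncoding RNA gene, Gm46948. Col1a1, the first chain (chromosome 11, 94936224 to 94953042), had 3 melatonin and 2 untreated peaks within 1 Mb and none nearer than 296 kb. Col3a1, the type III chain of soft tissue, and Col5a2, a type V chain that shapes fibril width, lie 24.6 kb apart on chromosome 1. Their nearest untreated peaks were at 55.1 and 49.5 kb, on opposite sides of the pair, and their nearest melatonin peak, the same one for both, was at 321 and 167 kb. Around Col3a1 there were 5 melatonin and 9 untreated peaks within 1 Mb.

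Col5a1 (chromosome 2, 27886381 to 28039510), the other main type V chain, showed the opposite order, with a melatonin peak at 33.9 kb (27851528 to 27852528, fold 5.34) and no untreated peak within 1409.8 kb. Col5a3 had a melatonin peak at 179 kb and an untreated one at 1397 kb. The melatonin list held 3 and 2 peaks within 1 Mb of these genes and the untreated list 0, so a few peaks set the gap. Among the cartilage chains, Col2a1 had an untreated peak 17.3 kb away (97957288 to 97958288, fold 8.72) and a melatonin peak at 110.5 kb. The nearest peaks of Col11a1 overlapped, with a melatonin call from 113907942 to 113908942 (fold 15.65) and an untreated call from 113908742 to 113909742 (fold 4.31). They lay 122 and 121 kb before the gene, and among members with no peak in the body in either list, no other had nearest peaks that overlapped each other. Col11a2, which pairs with Col11a1, was at 183 and 136 kb. Col27a1, another cartilage fibril gene, had 19 melatonin and 17 untreated peaks within 1 Mb, yet none was nearer than 175 and 169.5 kb.

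Network-forming collagens, which make basement membranes and related sheets, had a peak in 1 of 7 genes in each list, Col4a3. The shares over all protein-coding genes were 9.24% and 8.69%, not matched on length, and the median length in this class was 130.5 kb. The ubiquitous basement membrane chains Col4a1 and Col4a2 lie head to head on chromosome 8. Their nearest melatonin peaks were at 265 and 132 kb and their nearest untreated peaks at 121 and 236 kb, with 9 peaks of each list within 1 Mb. Col10a1, the collagen of hypertrophic cartilage (chromosome 10, 34389981 to 34397085), had nearest peaks at 65 kb with melatonin and 67 kb without, which stood 0.946 kb from each other. Col8a2, a chain of the cornea, was among the most remote members, at 2524 and 2360.5 kb, while its relative Col8a1 was at 170.3 and 83.2 kb.

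Fibril-associated collagens had a peak in 1 of 9 genes in each list, Col14a1, beside the 9.24% and 8.69% of all protein-coding genes. Those shares are not matched on length, and the median length in this class was 75.2 kb, against 17.5 kb over all protein-coding genes. This class had the largest median distance among those with more than 1 gene, at 614 kb with melatonin and 729 kb without. Col19a1 and Col9a1 lie 4.95 kb apart on chromosome 1 and shared their nearest peaks, at 1013 and 933 kb with melatonin and 1037 and 957 kb without. Col22a1, a chain of the muscle-tendon junction and 355 kb long, was 634 and 729 kb from a peak. Both of its nearest peaks lay in Trappc9. Col12a1, which coats fibrils of tendon and bone surfaces, had peaks at 102 kb with melatonin and 149.7 kb without, both in the long noncoding RNA gene Gm10635. Col16a1 was at 232 kb with melatonin and 1372 kb without. The type IX chains Col9a2 and Col9a3, which decorate cartilage fibrils, were at 463 and 614 kb with melatonin and 1145 and 645 kb without, and Col20a1 was at 695 and 398 kb.

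Collagens of beaded filaments and other von Willebrand A domain types had a peak in 3 of 8 genes with melatonin and 1 of 8 without. Beside them stand the 9.24% and 8.69% of all protein-coding genes, not matched on length (class median 91.8 kb). Col28a1 was marked in both, and Col6a1 and Col7a1 were counted through 1 flank peak each, so that with gene bodies alone 1 of the 8 had a melatonin peak. Col6a2, which lies 85.2 kb from Col6a1, had its nearest peaks at 32.5 kb with melatonin and 16.3 kb without, the latter in Ftcd. Col6a3, the third chain of the same protein, was at 65.2 and 82.6 kb. The cluster of Col6a4, Col6a5 and Col6a6 on chromosome 9 shared its nearest melatonin peak, at 159.6, 294 and 428 kb, and its nearest untreated peak on the other side, at 389, 255 and 88.4 kb. Transmembrane collagens, with a median length of 218 kb, had a peak in 0 of 4 genes with melatonin and 1 of 4 without. In this class Col17a1, the hemidesmosome collagen, was 3963 kb from a melatonin peak and 148 kb from an untreated one. Col13a1, of the neuromuscular junction, was at 436 and 331 kb, and Col23a1 at 279 and 76.4 kb. Col26a1, which is in no class here, was at 1068 and 559 kb.

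**Figure D2:**
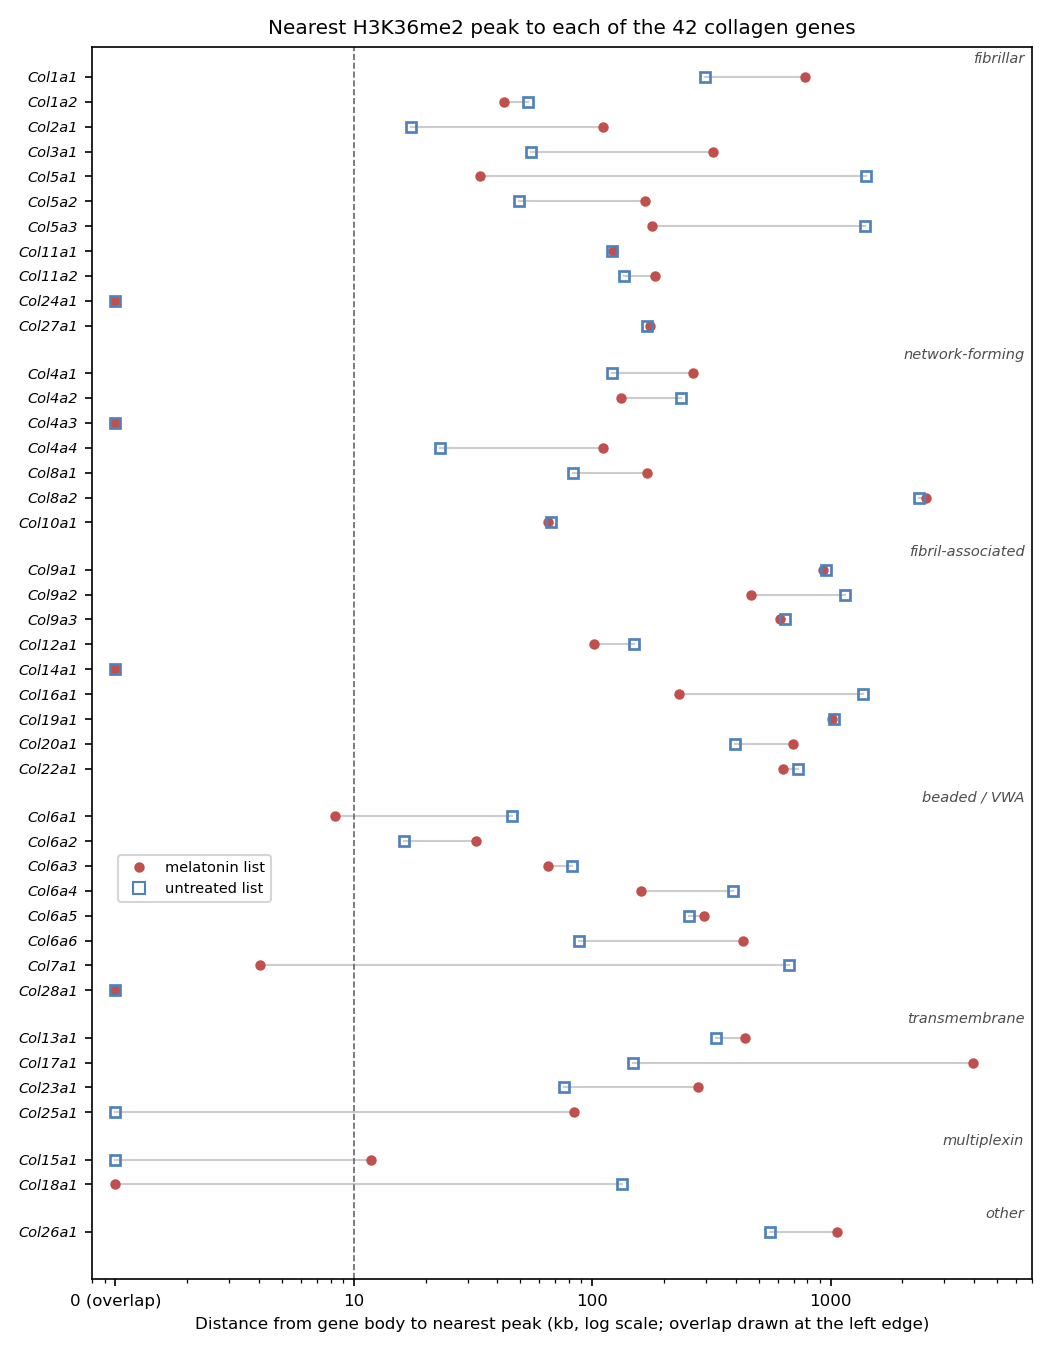
Each row is a collagen gene, by class, with the distance in kb (log scale) from the gene body to the nearest melatonin peak (filled circle) and untreated peak (open square); a peak in the gene is drawn at the left edge, and the dashed line is the 10 kb limit. Of the 42 genes, 17 were nearer to a melatonin peak, 21 nearer to an untreated peak, and 4 had a peak of each list inside. The untreated list held 8361 peaks and the melatonin list 7699, and neighbouring members share nearest peaks. The same split over all protein-coding genes was not computed.

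The median distance to the nearest peak was shorter over the collagen genes than over all protein-coding genes in both lists, which was not tested. It was 169 kb with melatonin (quartiles 48.3 and 434), against 236 kb over all genes (68.4 and 683). Without melatonin it was 134 kb (quartiles 50.6 and 518), against 292 kb over all genes (82.5 and 799). More than 500 kb from a peak were 9 collagen genes with melatonin and 11 without, where 31.8% and 36.3% of all genes were. Gene length was not held equal in these medians, and neighbouring members share peaks, as at the 7 pairs of members less than 200 kb apart.

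Collagen genes are long, with a median of 110.4 kb against 17.5 kb for all protein-coding genes, and long genes had peaks more often. Of the 24 members of 100 kb or more, 5 had a melatonin peak (20.8%, exact interval 7.13 to 42.2) and 6 an untreated peak (25%, interval 9.77 to 46.7), against 34.9% and 34.4% of all genes of that length. Of the 18 shorter members, Col6a1 and Col7a1 had a melatonin peak (11.1%, interval 1.38 to 34.7) and 0 an untreated one (interval 0 to 18.5), against 6% and 5.45% of all shorter genes. Each value for all genes lay inside the interval of the members.

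**Figure D3:**
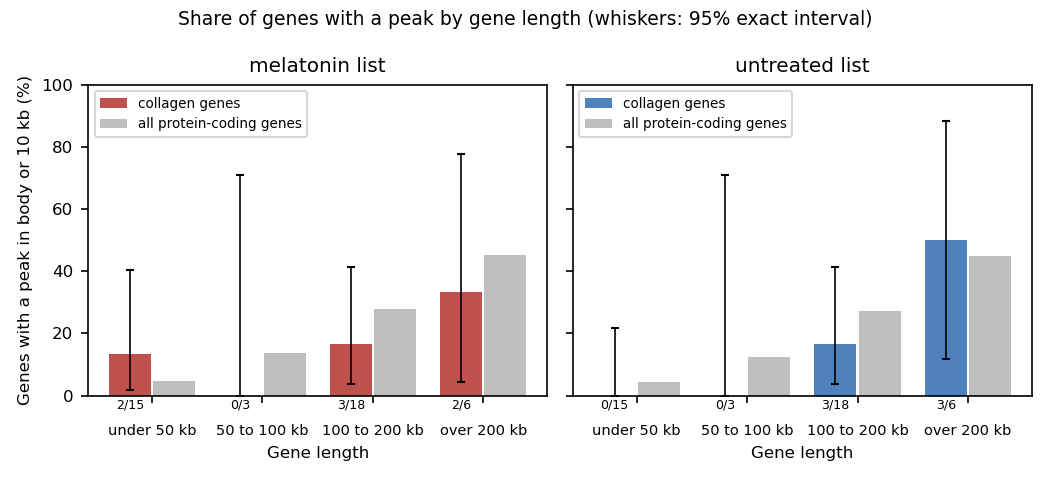
Bars give the percent of genes with a peak in the body or 10 kb, by gene length, for collagen genes (coloured, with the number of genes and 95% exact intervals) and all protein-coding genes (grey). Among genes over 200 kb, 2 of 6 collagen genes had a melatonin peak and 3 of 6 an untreated peak, against 45.1% and 45% of all genes.

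For each member, the other protein-coding genes of its chromosome whose length was within a factor of 1.5 were taken as like genes (a median of 132 per member, from 24 to 379). The mean of the members' like shares was 21.6% with melatonin and 20.9% without, or 9.09 and 8.8 genes of 42, where 7 and 6 were marked. The members' shares of 16.7% and 14.3% were thus above those of all genes and below those of like genes, and both comparison values lay inside the members' counting intervals. These intervals take the 42 genes as independent and with a common share, so they do not test the difference from like genes. The like shares ran from 1.47% for Col9a2 to 70.4% for Col22a1 with melatonin and from 1.1% for Col9a2 to 62.5% for Col25a1 without. Col22a1 had no peak although 19 of its 27 like genes on chromosome 15 had a melatonin peak and 15 an untreated one. Col19a1 had none where 26 and 28 of 55 like genes had one, nor had Col23a1, a transmembrane collagen, where 19 and 16 of 38 had one. At the other end, Col6a1 had a melatonin peak where 4.69% of its like genes did, and Col15a1 an untreated peak where 10.2% did.

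**Figure D4:**
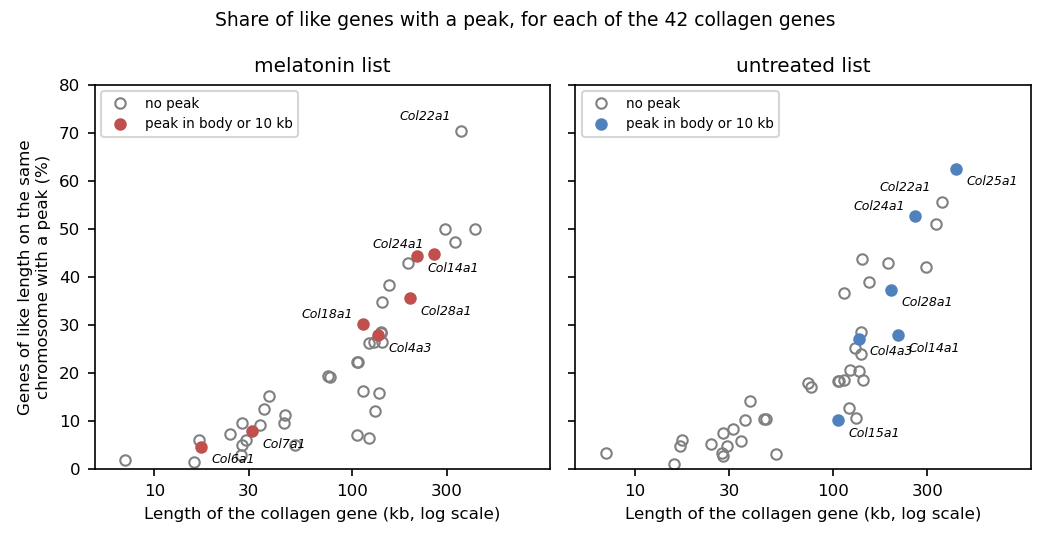
Each point is 1 of the 42 collagen genes, placed by its length (kb, log scale) and by the percent of genes of like length on its chromosome that had a peak; filled points had a peak themselves. Members with a peak spread from 4.69% (Col6a1) to 44.7% (Col24a1) with melatonin and from 10.2% (Col15a1) to 62.5% (Col25a1) without.

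Peak midpoints inside collagen gene bodies came to 9 over 4.92 Mb with melatonin, or 1.83 per Mb (Poisson interval 0.836 to 3.47), and to 13 without, or 2.64 per Mb (1.41 to 4.52). All protein-coding gene bodies held 2.26 and 2.36 per Mb, inside both intervals. The strength of collagen peaks was near that of all peaks. Their median fold over input was 4.78 with melatonin (4.13 to 16.96) and 4.61 without (4.1 to 7.26), against 5.11 and 4.87 over all peaks on chromosomes 1 to 19. Their median normalized tag count was 13.4 per 10000000 with melatonin and 13.3 without, against 13.4 and 13.6. Of the 13 melatonin peaks 12 had the smallest width of 1000 bp, and of the 14 untreated peaks 12, as did 79.1% and 79.6% of all peaks on these chromosomes. In each list 1 of these peaks overlapped the other list, where 6.12% of all melatonin peaks and 5.6% of all untreated peaks did.

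**Figure D5:**
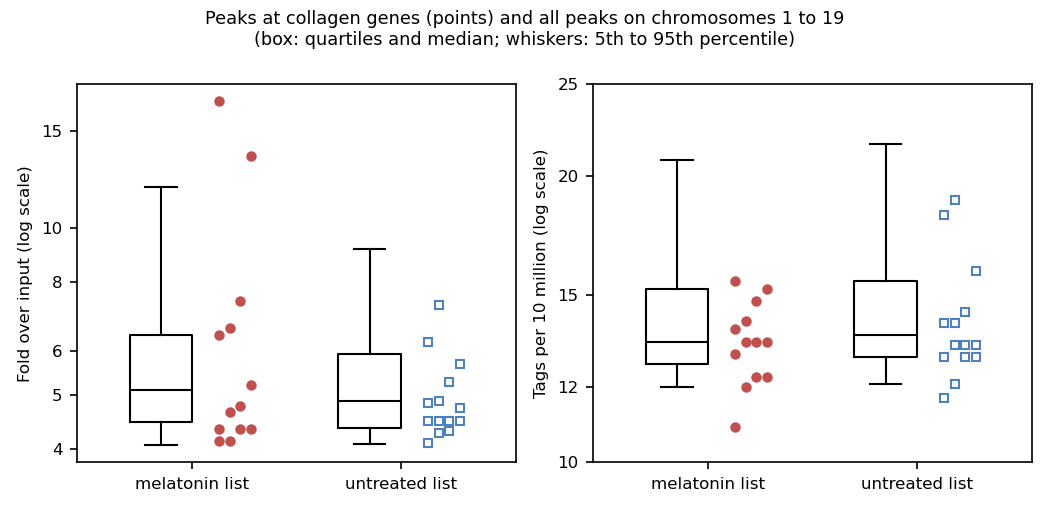
Points are the 13 melatonin and 14 untreated peaks at collagen genes, and boxes are all peaks of each list on chromosomes 1 to 19 (quartiles and median, whiskers from the 5th to the 95th percentile), for fold over input (left, log scale) and tags per 10000000 (right, log scale). The 2 highest melatonin folds, 16.96 and 13.48, are the sites past the end of Col28a1, and their tag counts of 13.8 and 10.9 per 10000000 are not high.

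Genes that make, process, bind and degrade collagen were counted in the same window. Of 17 biosynthesis genes, 1 had a melatonin peak and 2 an untreated peak: P4ha1, a prolyl hydroxylase subunit (best fold 8.99), with melatonin, and P4ha2, its relative (5.98), and Colgalt2, a collagen galactosyltransferase (4.7), without. Among these Colgalt2 alone had the peak inside the gene. Of 13 processing and cross-linking genes, 0 had a melatonin peak and 1 an untreated peak, Lox, the lysyl oxidase, at 5.7 kb from the gene (fold 4.49). Of 10 receptor genes, 2 had a melatonin peak and 3 an untreated one. Itga2, the alpha-2 integrin subunit, had 2 and 5 peaks (best folds 29.6 and 6.23), and its neighbour on chromosome 13, Itga1, the alpha-1 subunit, had 2 and 1 (7.1 and 4.7). Itgb1, the beta subunit that pairs with them, had 1 untreated peak (12.2), 8.64 kb away. Of 6 degradation genes, Mmp8, a collagenase, had a peak in each list (folds 10.4 and 4.56), and Mmp13, another collagenase, without melatonin alone (4.98). These shares lie beside the 9.24% and 8.69% of all protein-coding genes, and the lists were not matched on length. The tag counts and input tags behind the best folds of these genes are not given here.

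Peaks of this mark are positions and do not tell whether a gene is expressed, so the labelled cell type could not be checked with them. Of 8 stromal markers, 2 had a melatonin peak (Thy1, Nt5e) and 3 an untreated peak (Lepr, Nt5e, Ly6a). Of 6 macrophage markers, Ptprc and Csf1r had a peak with melatonin, and 0 had one without. Both were counted only through their flanks, with peaks 0.099 kb from Ptprc and 0.362 kb from Csf1r. Of 5 endothelial markers, Emcn, Kdr and Pecam1 had a melatonin peak, and Emcn and Kdr an untreated peak. Thy1, Ly6a and Kdr were likewise counted only through flanks. Of all protein-coding genes 9.24% and 8.69% had one, and the marker lists were not matched on length. Whether other marrow cells took part in the collagen peaks was not tested.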

How the data were processed

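H3K36me2 peaks were analysed from 1 melatonin and 1 untreated antibody library, and the input libraries entered only through the authors' peak calls. Per the file headers, peaks were called with HOMER findPeaks in histone style for each library against its own input: windows of 1000 bp with at least 18 (melatonin) or 17 (untreated) tags, at least 4 times the input with a Poisson p of 1e-04, without a local filter or pooling. The deposited files are named with the numbers that the labels give to the input libraries, while their headers name the antibody library as the target and the input as the control, and the headers were followed. BWA 0.7.13, MACS2 2.1.0 and Picard 1.126 are named, per the submitters' processing notes. These notes also name the build mm39, but peaks reach 159805034 on chromosome 3 and 145328623 on chromosome 7, past the mm39 ends, so coordinates were read as GRCm38.

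The deposited normalized tag count is a signal of tags per 10000000 tags, and the deposited ChIP and input tags are a signal scaled to the shallower library. The fold is the authors' ratio of ChIP over input tags after scaling, the p-value is the authors' Poisson p without adjustment, and the authors' findPeaks score was read but not reported. Folds and p-values describe or filter peaks within a list.

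Overlaps and distances were computed in Python 3.11.15 with pandas 2.3.3, numpy 2.4.6 and scipy 1.17.1, and the counting was checked on simulated peaks. Intervals (95%) are exact and cover counting error of genes or peaks only, because 1 library per condition gives no spread between replicates. They treat genes or peaks as independent, which neighbouring members may not be. Reads were not tied to molecules by identifiers. The comparison for length and chromosome used all like genes. Members and lists were chosen with earlier results of these data known. Named are all members with a peak, 15 members that the rule always names, the 3 nearest to and 3 farthest from a peak among the rest in each list, and listed pathway and marker genes with a peak; other members are named outside the rule, after their values were seen. Alternatives were other flanks, stricter peaks, equal numbers of peaks, midpoints and other like genes.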

Additional observations from a re-analysis of the deposited data

How the results depend on the processing

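The midpoint rule and a p of at most 1e-05 left all 6 counts within 1.5 times their values. With 50 kb on either side, 11 collagen genes had a melatonin peak and 11 an untreated peak, against 20.9% and 18.9% of all genes, 7 had both, and 2 peaks overlapped across the lists. With gene bodies alone and with 2 kb, 0 overlapped, since the Col28a1 site lies outside the gene, and Col6a1 and Col7a1 dropped out. At a fold of at least 6, which leaves fewer peaks, 4 genes had a melatonin peak (5 peaks), 2 an untreated peak (2 peaks) and 1, Col28a1, both. The shares of all genes also fell, to 3.77% with melatonin and 3% without. With each list cut to its 3849 peaks with the smallest p, 6 collagen genes had a melatonin peak (7 peaks), against 5.3% of all genes. The untreated list then gave 3 genes and 5 peaks, against 4.77% of all genes, and 2 genes, Col24a1 and Col28a1, had both. The share of all genes with a peak in both lists was not computed for the fold setting or for equal numbers. The like share was 20.3% with melatonin and 19.6% without at a length within a factor of 2. Over any of the chromosomes it was 20.6% with melatonin and, nearly unchanged, 20.2% without. The cause of these shifts in the like share was not tested. In each setting the counts of the lists differed by few genes, and depth in tags limits which weak sites could be called. No paired analysis was possible because each condition had 1 library.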
